A study of Mus musculus with 96 samples.

Results

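Striatal microRNA hairpins were compared between 10 and 6 months of age in heterozygous Q50 knock-in mice, using the 8 libraries titled as Q50 at 10 months and the 8 titled as Q50 at 6 months, which are 16 of the 96 libraries of the series. The libraries were assigned from their sample titles alone. The series holds small RNA sequencing of striatum from an allelic series of Huntington's disease (HD) model mice, named by the length Q of the CAG repeat knocked into *Htt*, the mouse huntingtin gene. Besides Q50, it has heterozygous Q20, Q92 and Q140 mice and 2 sets of wild-type littermates, born in the Q20 and Q50 lines, each with 8 mice at each age. The comparison asks which hairpins differ in abundance between both ages in the Q50 line, and whether that difference is another one in mice without the Q50 allele or in the other sex.

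All 16 mice carried the Q50 allele (*Htt* tm3Mem) in the heterozygous state, with C57BL/6 given as strain. Heterozygous males had been crossed with C57BL/6J females to breed them. They were housed with wild-type and other Q50 mice, and received no treatment that the labels name. Each age had 4 females and 4 males, each library is titled as a replicate of its own, and mice of both ages are different animals. The Q50 allele was thus present at both ages, so that the age comparison within Q50 by itself says nothing of the repeat. The 8 wild-type littermates per age serve as the animals without that allele. The striatum was dissected as a whole, so fewer cells of a type and less RNA per cell cannot be told apart in any value below.

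A microRNA is cut from a hairpin-shaped precursor transcript, and the mature strand guides a silencing complex to messenger RNAs with a matching site, which lowers their translation or stability. Most neurons of the striatum are medium spiny neurons, the cells that are lost first in HD. The tissue also holds astrocytes, oligodendrocytes, microglia and vessel cells, and each cell type has microRNAs of its own. The measured unit here is the hairpin, so both arms of a precursor are counted together. Hairpins are identified by miRBase accessions (MI numbers), which the files do not pair with microRNA names. Functions, families, cell type markers and sequences are therefore not given, and the striatal label of the tissue was not checked against markers.

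Library depth did not separate both ages. Total counts had a lowest, median and highest value of 5462434, 6302014 and 7810027 at 6 months, and of 4428152, 7209244 and 11450183 at 10 months. The 10-month libraries enclosed the range of the younger ones, and the difference in means of 835050 counts did not pass a two-sided exact permutation test (p = 0.34, Benjamini-Hochberg adjusted 0.34 over 3 measures of the libraries). The 8 most abundant hairpins of a library took 50.7% ± 1.58 of its counts at 6 months and 49.9% ± 0.459 at 10 months (SD, n = 8 each, exact permutation p = 0.186, adjusted 0.279). A count of at least 1 was found for 690 ± 7.13 hairpins at 6 months and 705 ± 27.9 at 10 months (SD, n = 8 each, exact permutation p = 0.179, adjusted 0.279). TMM factors, which rescale each total so that the typical hairpin is equal between libraries, were 0.918 to 1.04 at 6 months and 1.01 to 1.06 at 10 months.

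Many hairpins differed in abundance between both ages, most of them by small amounts. Of 1187 hairpins in the table, 958 had a count in a Q50 library and 427 were abundant enough to be tested. Of these, 118 (27.6%) differed between ages at an adjusted p below 0.05 (edgeR's quasi-likelihood test with Benjamini-Hochberg adjustment and sex as covariate, 16 libraries). Abundance was higher at 10 months for 62 hairpins (14.5% of those tested) and lower for 56 (13.1%). The 62 had a median log2 change of 0.41 and the 56 one of -0.30, against -0.01 over all 427. Changes of over 1 on the log2 scale were found for 7 of the hairpins that rose and 3 of those that fell, and changes over 0.5 for 23 and 8. At an unadjusted p below 0.05 the count was 159.

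The split between rises and falls depended on how libraries were scaled. With library totals in place of TMM factors, the median log2 change of all tested hairpins lay 0.09 higher, and 95 hairpins were called higher and 22 lower. The limma test on log2(FPKM + 1), which also rests on totals, called 96 higher and 21 lower, whereas RLE size factors gave 61 and 61. All 62 rises and 22 of the 56 falls were also called with totals, and none of the 118 changed sign. Values below are therefore changes relative to the typical hairpin. Leaving out the 6-month female replicate 3 lowered the count of falls to 37, and without each other library it was at least 38.

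The hairpins called higher held 5.77% ± 0.455 of the counts of a 6-month library, from 4.85% to 6.28%, and 7.95% ± 0.434 of a 10-month library, from 7.22% to 8.53% (SD, n = 8 each). Those called lower held 33.6% ± 1.12 and 30.1% ± 0.844 (SD, n = 8 each), with ranges of 31.8% to 35.7% and 28.6% to 31.4%. Neither pair of ranges overlaps, which the selection of these hairpins on the same libraries favours, so the shares are a description only. In sum the falling hairpins thus held the larger share, which a few very abundant ones can set. Among the 20 most abundant hairpins, which took 69.2% of all counts, 2 rose and 9 fell, with log2 changes between -0.37 and 0.54. Rises and falls in each class of abundance are given below.

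Calls became more frequent and smaller with abundance. Abundance is given in CPM, the count of a hairpin relative to 1e6 counts of its library, with the total multiplied by its TMM factor. Under 10 CPM, 12.8% of 117 hairpins were called, 7 higher and 8 lower, with a median absolute log2 change of 0.62. Between 10 and 100 CPM, 22 rose and 7 fell of 102 (28.4%), with a median change of 0.40. Between 100 and 1000 CPM, 20 rose and 19 fell of 115 (33.9%), and at 1000 CPM and over, 13 rose and 22 fell of 93 (37.6%), with median changes of 0.29 and 0.27. The median standard error of the log2 change shrank over these classes from 0.18 to 0.11, 0.08 and 0.08, so that a change of 0.3 could be called among abundant hairpins and mostly not among scarce ones. Hairpins with late accessions (from MI0013000 on) were called in 19.3% of 109 cases, 11 higher and 10 lower, and earlier ones in 30.5% of 318, 51 higher and 46 lower. Their median abundance was 7.04 and 225 CPM, and the part of abundance in this difference was not tested.

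**Figure D1:**
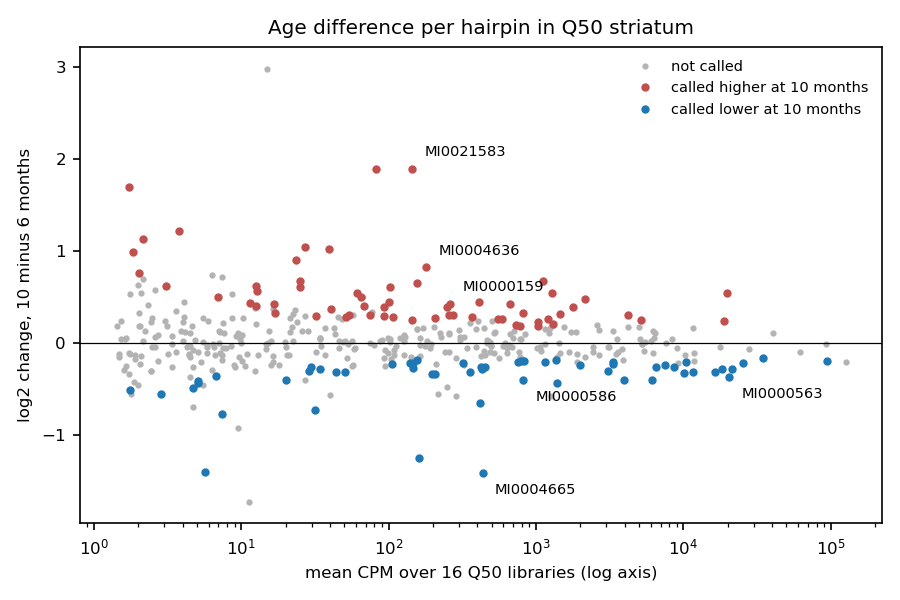
Log2 change from 6 to 10 months in Q50 striatum (vertical axis) against mean CPM over 16 libraries (horizontal log axis), 1 point per tested hairpin. Red points are the 62 hairpins called higher at 10 months and blue points the 56 called lower, and the called points lie nearer to 0 on the right, where the 20 most abundant hairpins stay between -0.37 and 0.54.

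The hairpin with the smallest adjusted p was MI0004636, which rose. Its abundance was 98.4, 130 and 163 CPM (lowest, median, highest) at 6 months and 209, 226 and 258 CPM at 10 months. Every older mouse lay above every younger one. Mean values were 129 ± 19.5 and 228 ± 16.9 CPM (SD, n = 8 each), a log2 change of 0.82 ± 0.08 (SE), or 1.77-fold (edgeR adjusted p = 6.23e-06). Both sexes rose, by 1.05 ± 0.09 in females and 0.60 ± 0.09 in males, and the difference between sexes did not pass (-0.45, edgeR adjusted p = 0.26). All of its counts were whole numbers, within a tolerance of 0.001 that also applies to the counts called whole or not whole below.

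MI0000159 also rose, from 193, 226 and 242 CPM at 6 months to 267, 305 and 320 CPM at 10 months (lowest, median, highest). The ages were again fully separated. The means were 223 ± 15.2 and 299 ± 17.6 CPM (SD, n = 8 each), a log2 change of 0.42 ± 0.05, or 1.34-fold (edgeR adjusted p = 3.69e-05). The sexes had changes of 0.47 ± 0.07 and 0.38 ± 0.07. Its counts were not whole in any of the 16 libraries, so that part of its reads may be shared with other hairpins.

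Among the hairpins that fell, MI0000586 had 794, 934 and 1068 CPM at 6 months and 659, 696 and 793 CPM at 10 months (lowest, median, highest). The highest older mouse lay just under the lowest younger one. Mean abundance went from 936 ± 95.1 to 705 ± 42.8 CPM (SD, n = 8 each), a log2 change of -0.41 ± 0.07 or 0.754-fold (edgeR adjusted p = 0.000351). Females had a change of -0.52 ± 0.08 and males one of -0.29 ± 0.08.

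MI0000563 was the most abundant of these 4 hairpins, with 20947, 22262 and 25864 CPM at 6 months and 15966, 17964 and 19655 CPM at 10 months (lowest, median, highest). Its ages did not overlap either. Mean abundance went from 22936 ± 1864 to 17713 ± 1189 CPM (SD, n = 8 each), a log2 change of -0.37 ± 0.06 or 0.773-fold (edgeR adjusted p = 0.000351). Like MI0000159 it had no whole count in any library, so a part of its reads may belong to other hairpins. Its change was no longer called when all 96 libraries shared 1 estimate of the spread (adjusted p = 0.0824 by edgeR).

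The largest called changes were those of MI0021583 and MI0004665, named after their values were seen. MI0021583 rose from 32.2, 48.4 and 121 CPM to 136, 186 and 449 CPM (lowest, median, highest), and its ages did not overlap. The log2 change was 1.89 ± 0.28 or 3.72-fold (edgeR adjusted p = 0.000378), with the 4 highest values in the 10-month males. MI0004665 fell from 234, 607 and 1112 CPM to 146, 227 and 364 CPM (lowest, median, highest). Here the ages overlapped, since 6-month male replicate 4, with 234 CPM, lay among the older mice. The log2 change was -1.42 ± 0.26 or 0.373-fold (edgeR adjusted p = 0.00136), and its counts were not whole in 12 of 16 libraries.

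**Figure D2:**
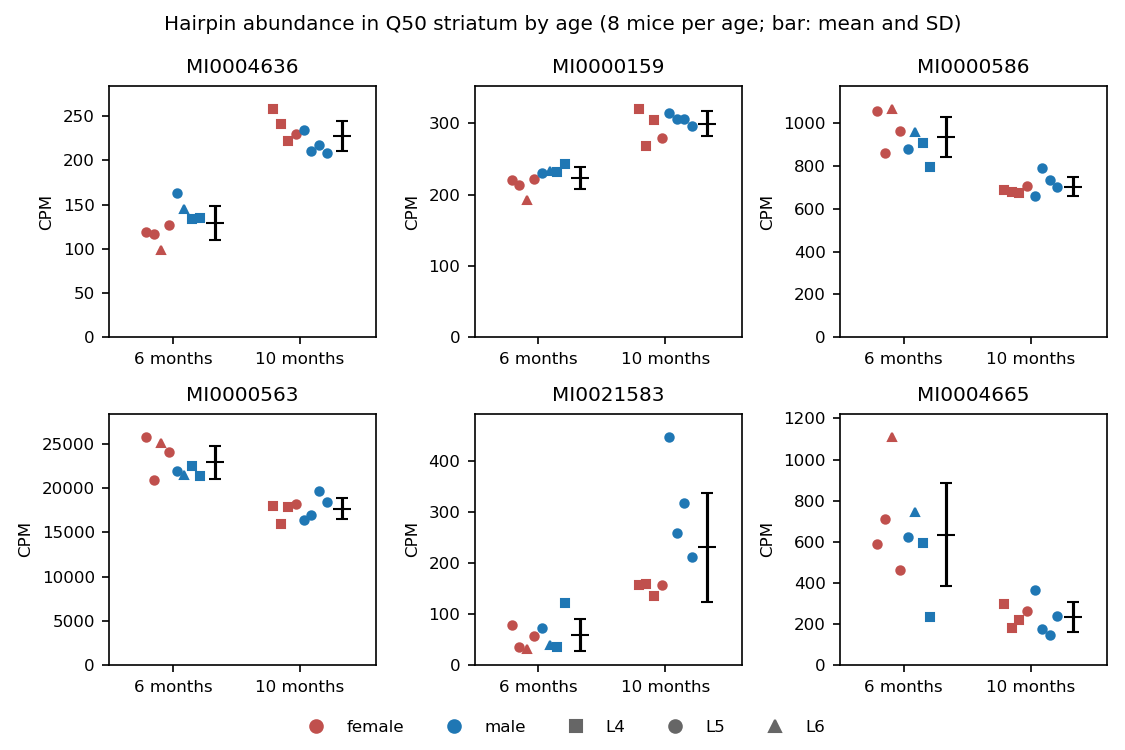
Abundance in CPM (vertical axis, from 0) of 6 hairpins at 6 and 10 months in Q50 striatum, 1 point per mouse, with colour for sex and shape for the L number of the library; bars give the mean and SD of 8 mice. The ages are separated for all hairpins shown but MI0004665, whose 10-month highest value of 364 CPM exceeds the 6-month lowest of 234 CPM.

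Complete separation of 8 against 8 mice was found for 20 of the 427 hairpins (4.68%), 15 higher and 5 lower at 10 months, and all 20 were among the 118. A summary over all tested hairpins also split the libraries by age. On the first principal component, which held 22.3% of the variance of log2 CPM values, 6-month libraries lay between 0.32 and 6.81 and 10-month libraries between -5.67 and -1.81. The second component held 15.0% and mixed both ages. The 6-month male replicate 2, the 6-month library nearest to the older ones, had a connectivity Z, a standardized likeness to the other libraries, of -5.58. This is under -5, the limit below which libraries count as outliers by that measure. Without it 115 hairpins were called, 61 higher and 54 lower, of which 106 were among the 118.

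**Figure D3:**
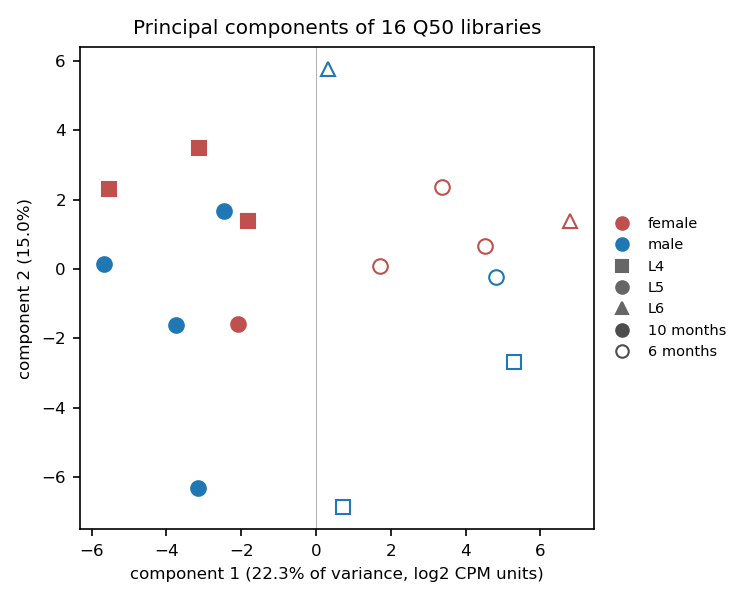
First and second principal component of log2 CPM over the 427 tested hairpins for 16 Q50 libraries, with filled points for 10 months and open points for 6 months, colour for sex and shape for L number. The 10-month libraries lie at or below -1.81 on the horizontal axis and the 6-month libraries at or above 0.32.

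The sample descriptions hold further numbers that were unevenly spread over both ages. Each description ends in an L number followed by an LB number, and the meaning of both is not stated. The LB number was not used here. The 10-month libraries had L4 (3, all female) and L5 (5), and the 6-month libraries L4 (2, both male), L5 (4) and L6 (2). With age and sex in the edgeR model, 0 hairpins were called for a difference between L numbers. As L6 was held by 2 libraries, both at 6 months, this test cannot exclude such differences. With the L number as a factor 107 hairpins were called with age, 59 higher and 48 lower, of which 98 were among the 118, and all 118 kept their sign. Changes within an L number were taken as differences of mean log2 values, without sex in the model. Within L5, where 10-month libraries were mostly male and 6-month ones mostly female, all 118 had the same sign. Their median change in the direction of the call was 0.35, and 84.8% of all 427 hairpins had the same sign. Within L4, where age and sex cannot be told apart, 114 of the 118 had the same sign, with a median of 0.33, against 79.2% of all 427. These libraries are part of those on which the 118 were called, which favours the same sign, so both are a description only. Tested on the 9 L5 libraries alone, with sex as covariate, 17 hairpins were called, 10 higher and 7 lower, of which 16 were among the 118. Without sex in the model, the within-L5 and within-L4 changes were 0.76 and 0.84 for MI0004636, and 0.44 and 0.32 for MI0000159. They were -0.38 and -0.32 for MI0000586, and -0.37 and -0.35 for MI0000563. With sex as covariate, the L5 changes of these hairpins were 0.67, 0.38, -0.36 and -0.33, in the same order.

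Descriptions also open with a number, which ran from 426226 to 426272 at 6 months and from 426429 to 426465 at 10 months. In the whole series no library broke this split, so age and whatever this number stands for cannot be told apart, in Q50 or in any other genotype. The following comparisons between genotypes and sexes set differences between ages against each other, and each of their groups has the same split of this number. L numbers, however, were not spread over the ages alike in Q50 and in its wild-type littermates. With the L number as a factor, the interaction of age and genotype between both, given below, also called 0 hairpins.

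The wild-type littermates of the Q50 line, 16 other mice, mostly changed in the same direction with age. Of the 118 hairpins, 107 (90.7%) had the same direction in the littermates, against 70.3% of all 427. A p below 0.05 in that direction was reached by 67 of the 118 (56.8%), against 115 of all 427 (26.9%). Among the 309 not called in Q50 it was reached by 48 (15.5%). None of the 118 reached it in the opposite direction. In either direction, 29.7% of all 427 hairpins had a p below 0.05 in the littermates. The 62 hairpins that rose in Q50 had a median log2 change of 0.34 in the littermates, 58 of them above 0, and the 56 that fell one of -0.26, with 49 below 0. In a fit of the littermates alone, on the same 427 hairpins kept by their abundance in Q50, 33 were called higher and 25 lower. Of the 118 called in Q50, 41 were also called in the same direction in the littermates. Across the 427 hairpins, which are not independent, the changes of both genotypes had Pearson's r of 0.706 and Spearman's rho of 0.648.

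No difference of the age change between Q50 mice and these littermates passed the test. The interaction of age and genotype over 32 libraries called 0 of 442 hairpins (0%) in edgeR, and also 0 in DESeq2 and in limma. The smallest adjusted p was 0.461 and 31 hairpins had an unadjusted p below 0.05. Over the 442 hairpins, the median standard error of the difference was 0.18 on the log2 scale, with an unadjusted 95% interval of ± 0.37. The hairpins called in Q50 had a median absolute change of 0.32. For most of the 442, a difference of that size would thus lie within the unadjusted interval. Intervals of the called hairpins alone were not summarized. For MI0004636 the littermates had a change of 0.75 ± 0.12, and the difference was 0.06 ± 0.15 (edgeR adjusted p = 0.95). MI0000159 changed by 0.49 ± 0.11 and MI0000586 by -0.42 ± 0.15 in the littermates, with differences of -0.06 ± 0.12 and 0.02 ± 0.17. MI0000563 had the smallest change in littermates of the 4, with -0.16 ± 0.17, and a difference of -0.20 ± 0.19 that did not pass (edgeR adjusted p = 0.723). Changes in littermates were 2.08 ± 0.35 for MI0021583 and -1.31 ± 0.18 for MI0004665.

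**Figure D4:**
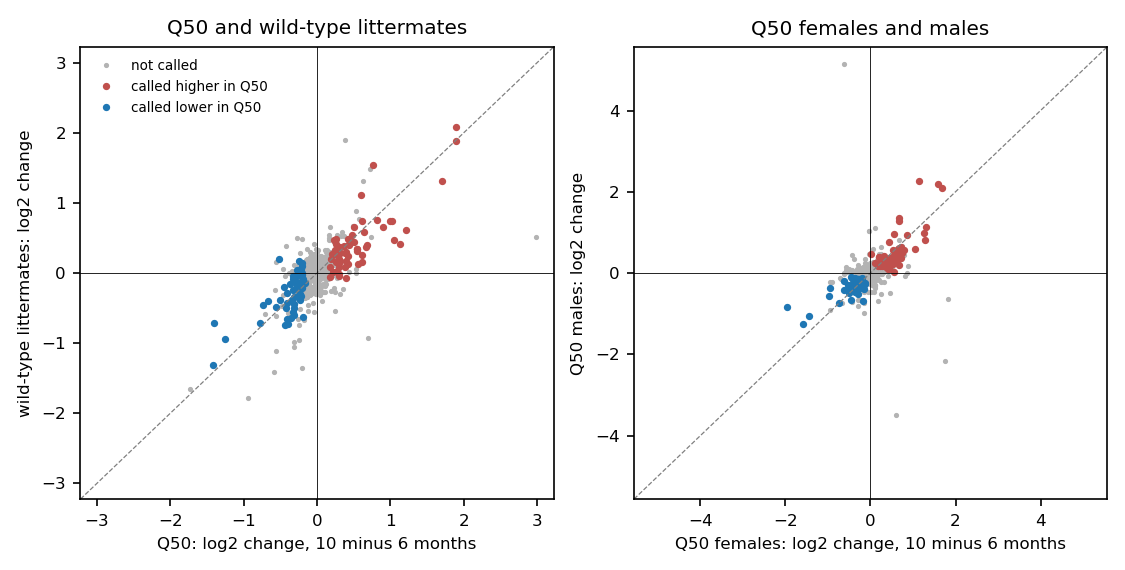
Log2 change from 6 to 10 months, 1 point per tested hairpin: wild-type littermates (left, vertical) against Q50 (horizontal), and Q50 males (right, vertical) against Q50 females (horizontal), with the diagonal of equal change dashed. Red points rose and blue points fell in Q50, and 107 of these 118 lie on the same side of 0 in the littermates, as do all 118 in both sexes.

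The remaining genotypes were examined in the same way, each in its own 16 libraries. The same direction as in Q50 was found for 115 of the 118 hairpins in Q20 and 102 in wild-type littermates of the Q20 line, against 76.1% and 66.5% of all 427. It was found for 103 in Q92 and 107 in Q140, against 65.8% and 68.9% of all 427. Of the 118, 2 in Q92 and 2 in Q140 reached an unadjusted p below 0.05 in the opposite direction, and none in Q20 or the Q20 littermates. In the direction of Q50 it was reached by 73 of the 118 in Q20, 72 in the Q20 littermates, 63 in Q92 and 50 in Q140. In either direction, 28.6%, 35.8%, 32.8% and 27.4% of all 427 reached it, in the same order. Those shares were not split by direction. All 5 other genotypes had the direction of Q50 for 93 of the 118 (78.8%), against 196 of all 427 (45.9%), and for each of the 20 hairpins with separated ages. MI0004636 rose in each genotype, with log2 changes of 0.87 ± 0.11 in Q20, 0.99 ± 0.15 in the Q20 littermates, 0.68 ± 0.11 in Q92 and 0.72 ± 0.10 in Q140. The change of MI0000159 was 0.71 ± 0.14 in Q20 and 0.38 ± 0.13 in the Q20 littermates, both called, and 0.20 ± 0.10 in Q92 and 0.02 ± 0.12 in Q140, neither called. Changes of MI0000586 were -0.36 ± 0.07 in Q20, -0.60 ± 0.15 in the Q20 littermates, -0.25 ± 0.07 in Q92 and -0.25 ± 0.21 in Q140, the last of them not called. MI0000563 followed with -0.40 ± 0.10, -0.56 ± 0.14, -0.29 ± 0.08 and -0.18 ± 0.20, the last again not called.

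Against the mean of all 5 other genotypes, over 96 libraries, the age change of Q50 differed for 1 of 474 hairpins (0.211%). It was MI0000256, named after its values were seen, with a difference of 4.19 ± 0.77 on the log2 scale (edgeR adjusted p = 0.000227). In Q50 it had 0.503 to 2.17 CPM at 6 months, and 0.943, 1.13 and 219 CPM (lowest, median, highest) at 10 months. The values of both ages overlapped, and a single mouse stood apart: 10-month male replicate 3 held 1508 counts of it, against at most 85 in each other library of the series. Without that library the difference was -0.22 (edgeR adjusted p = 0.886) and no hairpin was called. Within Q50 the age change of MI0000256 did not pass (2.98 ± 1.53, edgeR adjusted p = 0.175), though it did with all 96 libraries in the fit (4.07, adjusted p = 7.02e-06) and without the sex covariate (4.17, adjusted p = 0.0426), both of which include that library. The next smallest adjusted p among the 474 was 0.443, and 44 had an unadjusted p below 0.05.

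Both sexes of Q50 mice changed in the same direction for all 118 called hairpins, which the pooled selection favours, and for 313 of all 427. Of the 427 hairpins tested, 37 were called higher and 30 lower in the 8 females, and 14 and 8 in the 8 males. In both sexes and the same direction, 15 of the 427 were called. These counts do not show that age acted more on females, since the difference itself was called for 0 of 427 hairpins (0%) by edgeR, whose smallest adjusted p was 0.143. An unadjusted p below 0.05 was reached by 28 hairpins. limma called 0 as well. DESeq2 called 1, MI0000799, named after its values were seen, with a log2 change that was 0.64 higher in males (DESeq2 adjusted p = 0.0168). The median standard error of the difference between sexes was 0.20. Across hairpins the changes of both sexes had Pearson's r of 0.386 and Spearman's rho of 0.614, from libraries of 4 mice per sex and age.

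Hairpin length, recovered from the ratio of count to FPKM, had a median of 84 bases for those that rose, 83 for those that fell and 83 for all tested. Counts that were not whole in some library were found for 137 of the 427 tested and 35 of the 118 called hairpins. When hairpins with whole counts alone were tested, 88 of 290 were called.

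**Figure D5:**
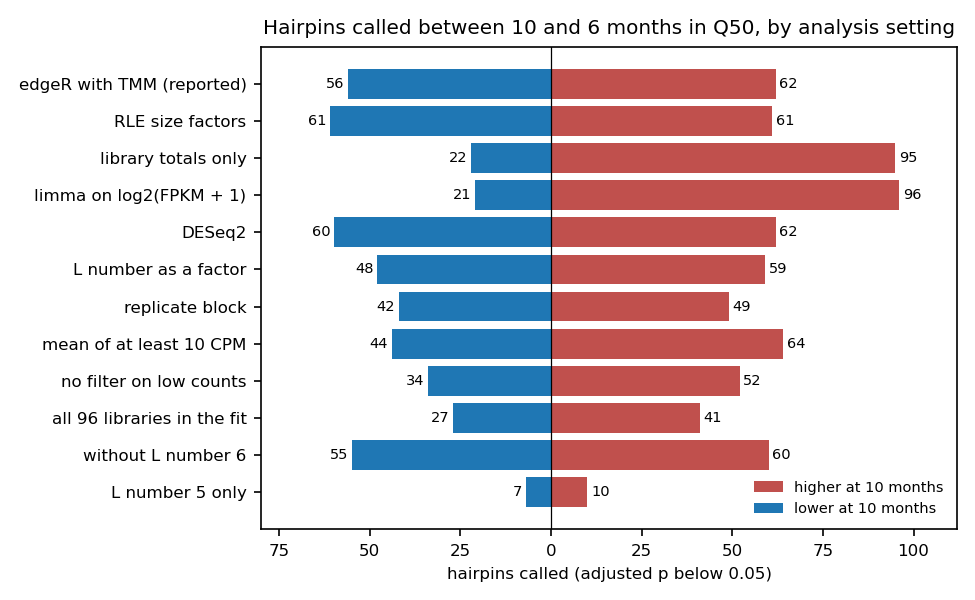
Number of hairpins called higher (red, to the right of 0) and lower (blue, to the left of 0) at 10 months in Q50 under each analysis setting, with the number beside each bar. The bars run from 62 and 56 with edgeR and TMM to 95 and 22 with library totals, and to 10 and 7 in the 9 libraries of L number 5.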

How the data were processed

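Small RNA libraries of striatum were made by the submitters from total RNA, sequenced as single-end reads and, per the study's methods, aligned to mm10 with STAR and assigned to hairpins with HTSeq. The submitters' processing notes name CASAVA 1.8.2. The deposited tables hold estimated counts, part of them not whole, and FPKM values that the authors computed from those counts, the hairpin length and the library total. Columns with the authors' own tests were not used, and 0 columns lacked a sample. How fractional counts arose is not given in the sources used here; they were rounded before count-based tests.

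Hairpins were kept by filterByExpr with a minimum count of 10 and tested with edgeR 4.0.16 (R 4.3.3), TMM factors, robust quasi-likelihood dispersions and sex as covariate. Adjusted p is by Benjamini-Hochberg over all hairpins tested, with 0.05 as threshold. Differences of the age change between genotypes or sexes were interaction terms. Library measures were compared by exact permutation. Alternatives were DESeq2 1.42.0, limma 3.58.1 on log2(FPKM + 1) or log2(FPKM + 0.1), other scalings, filters and covariates, the replicate block, all 96 libraries in 1 fit, and each library left out. Thinning to the smallest total and whole-valued hairpins alone were added after seeing the data. Code was tested on simulated data.

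The comparison, naming rule and tests were chosen with earlier results of these data known. The rule named the 2 hairpins with the smallest adjusted p per direction among those with a mean of at least 10 CPM. The study's batch covariate is not defined by the labels and was not used. No libraries were duplicates (smallest chi-square per degree of freedom 46.9). Total counts were 4428152 to 11450183 per Q50 library, and errors cover mice and counting.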

Additional observations from a re-analysis of the deposited data

Results flagged for a closer look

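MI0000256 at 10 months in Q50 had 1 library far from the others: male replicate 3 had 219 CPM, while the other 7 had 0.943 to 1.67 CPM. Of 16 groups of 8 libraries examined in this way (7 hairpins and the total count at both ages), it was the sole one. Among unselected groups chance picks about 1 in 20, or 0.8 of 16. That rate does not apply here, since the 7 hairpins were chosen by their results in these libraries. MI0000256 was among those examined because of its difference from the other genotypes, which comes from the same library, so both are 1 observation.

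The age change of MI0000256 in Q50 differed from the mean of the 5 other genotypes by 4.19 on the log2 scale, in a test of the difference itself over 96 libraries (edgeR adjusted p = 0.000227). Without that library the difference was -0.22 (edgeR adjusted p = 0.886).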

How the results depend on the processing

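All of the 118 hairpins that could be tested kept their sign under each alternative. Scaling by library totals called 95 higher and 22 lower, limma 96 and 21 with either pseudocount, and no filter on low counts 52 and 34. With all 96 libraries in the fit the count fell to 68 (41 higher, 27 lower), 67 of them among the 118, and in L5 alone to 17 (10 and 7), with 9 libraries. The replicate block by sex and number gave 91 calls (49 and 42), 88 of them among the 118; deviations of same-numbered libraries had a mean correlation of 0.04 (-0.28 to 0.32, 4 of 8 pairs over 0.1), so the numbers were not taken as pairs. RLE and DESeq2 gave 122 calls each, no sex covariate 117, without L6 115, thinning 111 and a mean of at least 10 CPM 108. Leaving out 1 library gave 85 to 115 calls, 45 to 65 higher and 37 to 54 lower, the lowest total without 10-month female replicate 2. For the difference from littermates it gave 0 to 0 calls, from all other genotypes 0 to 1, and between sexes 0 to 1, with 1 call without 10-month female replicate 4, 6-month female replicate 2 or 6-month male replicate 3. DESeq2 also gave 1 call between sexes, and a mean of at least 10 CPM gave 0 against all other genotypes. The difference in total counts ranged from 237387 to 1240530 (exact permutation p 0.0951 to 0.678). With 1 library left out, the age change of MI0000256 ranged from -0.35 to 3.42, and from -0.22 to 4.43 against the other genotypes, in both cases lowest without 10-month male replicate 3. It was called with all 96 libraries (4.07) and without the sex covariate (4.17). In L5 alone MI0000586, MI0000563, MI0021583 and MI0004665 missed the threshold (edgeR adjusted p of 0.081, 0.107, 0.0561 and 0.081); where tested, the calls of the 6 hairpins shown were kept under the other alternatives, but for MI0000563 with 96 libraries. MI0000159, MI0000563 and MI0004665 were not tested among whole-valued hairpins. Depth limits hairpins under 10 CPM, with a median standard error of 0.18. The cause of these differences was not tested, but L5 alone holds fewer libraries.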

Other observations

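MI0025035, named after its values were seen, was not tested because too few Q50 libraries held it. It had 20594 counts in 6-month male replicate 2, 3882 in 10-month male replicate 2, 2358 in 6-month female replicate 3, 12 in 6-month female replicate 2 and 0 in the other 12 libraries. The next highest count of any untested hairpin in a Q50 library was 32. The library with 20594 counts is the one below the connectivity limit, and 10-month male replicate 2 had the next lowest connectivity (Z of -4.22); the part of this hairpin in those values was not tested.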
